A study of Rattus norvegicus with 4 samples.

Results

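Major histocompatibility complex (MHC) class II molecules were followed in colon RNA of 4 rats, through 10 genes of peptide presentation: RT1-Ba, RT1-Bb, RT1-Da, RT1-Db1, RT1-DMa, RT1-DMb, RT1-DOb, Cd74, Ciita and Ctss. They were selected on their log2 values in the MSCT group against the control group on these same arrays, so their differences, and the count of them past a screen, are given as a description that tests nothing. All 10 genes were matched by RefSeq accession to 1 row each with a value on all 4 arrays, out of 18350 such rows. The arrays, NimbleGen chips read in one color with 1 per animal, came from 4 male Sprague Dawley rats, 2 in each of a control and an MSCT group. The MSCT rats had received 2,4,6-trinitrobenzene sulfonic acid (TNBS) in ethanol into the colon, which induces colitis, and then mesenchymal stem cells (MSCs) labeled with green fluorescent protein through the tail vein. The control rats had received no MSCs. Their sample labels call them normal, whereas the study's text calls the comparison group IBD rats, so they are named control here. Whether they had received TNBS is therefore not settled. If they had not, TNBS and MSCs cannot be told apart in any difference below. The study's text places the chips at 2 different days after transplantation and the labels give none. The rats are of an outbred stock, and their RT1 haplotypes and ages are not stated in the sources used here.

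An MHC class II molecule is a pair of an α and a β chain that shows peptides of extracellular proteins to CD4 T cells. The chains assemble on the invariant chain Cd74, proteases of the endosome such as cathepsin S (Ctss) cut this chain down to a fragment in the groove, and RT1-DM exchanges the fragment for a peptide, a step that RT1-DO restrains. Dendritic cells, B cells and macrophages carry class II molecules constitutively, and other cells, the gut epithelium among them, can make them under interferon γ, which induces the transactivator Ciita. In the rat the genes are named RT1, with RT1-B corresponding to human HLA-DQ and RT1-D to HLA-DR.

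Class II promoters carry a conserved arrangement of an X box, bound by the RFX complex, and a Y box, bound by NF-Y, which together recruit Ciita. Stretches of promoters from RefSeq (assembly GRCr8) are shown. In the first 5, the capitals mark the letters GCAAC of the X box side and ATTGG of the Y box. These 5 set genes whose arrays did not overlap between the groups beside RT1-DOa, which has the same letters and whose groups overlapped.

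RT1-Ba, chr20:4576969-4577026, plus strand: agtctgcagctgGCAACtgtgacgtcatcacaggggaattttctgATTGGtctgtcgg
RT1-Da, chr20:4515321-4515378, plus strand: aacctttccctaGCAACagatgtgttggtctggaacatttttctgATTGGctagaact
RT1-Db1, chr20:4560230-4560286, minus strand: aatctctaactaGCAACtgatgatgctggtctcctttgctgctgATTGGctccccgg
RT1-DOb, chr20:4627594-4627648, minus strand: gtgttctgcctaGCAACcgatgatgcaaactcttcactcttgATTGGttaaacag
RT1-DOa, chr20:4758518-4758575, minus strand: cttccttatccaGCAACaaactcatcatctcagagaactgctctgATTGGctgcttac

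In the next pair the Y box letters, in capitals, were found without an exact GCAAC at this place. Variants of the X box letters were not sought, so an X box is not excluded there. The groups did not overlap for RT1-Bb and overlapped for RT1-DMa.

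RT1-Bb, chr20:4604167-4604224, minus strand: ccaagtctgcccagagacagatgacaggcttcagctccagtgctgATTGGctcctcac
RT1-DMa, chr20:4712387-4712444, minus strand: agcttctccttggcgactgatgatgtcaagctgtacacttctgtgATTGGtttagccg

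In the last, the capitals mark a match to GAAANNGAA, letters of elements bound by interferon regulatory factors.

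Ctss, chr2:185775335-185775392, plus strand: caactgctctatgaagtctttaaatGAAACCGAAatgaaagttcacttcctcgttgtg

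Promoter windows of 300 bases, 250 of them before the annotated start, were found for 8 of the 10 genes, not for RT1-DMb and Ciita. On both strands of each window, 3 motifs were searched: CCAAT, GAAANNGAA, and GCAAC followed on the same strand after 24 to 32 bases by ATTGG. The last of these contains a match to the first, since ATTGG is CCAAT read on the other strand. The spacing of the pair was set to that of X and Y boxes in class II promoters. Its frequency in these windows, set against all windows, therefore tests nothing. The spaced pair was present in 4 of the 8 windows (RT1-Ba, RT1-Da, RT1-Db1 and RT1-DOb) and in 117 of 33469 windows of all genes (0.35%). It began 76 bases before the start in RT1-Ba and 82 in RT1-Da, both with 28 bases between the boxes. In RT1-Db1 it began 112 bases before the start with 27 between the boxes, and in RT1-DOb 113 before the start with 25. CCAAT was present in all 8 windows and in 37.5% of all windows. GAAANNGAA was present in 1 of the 8, that of Ctss, and in 9.71% of all windows. These are matches of letters in a window, and binding was not measured here.

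**Figure D1:**
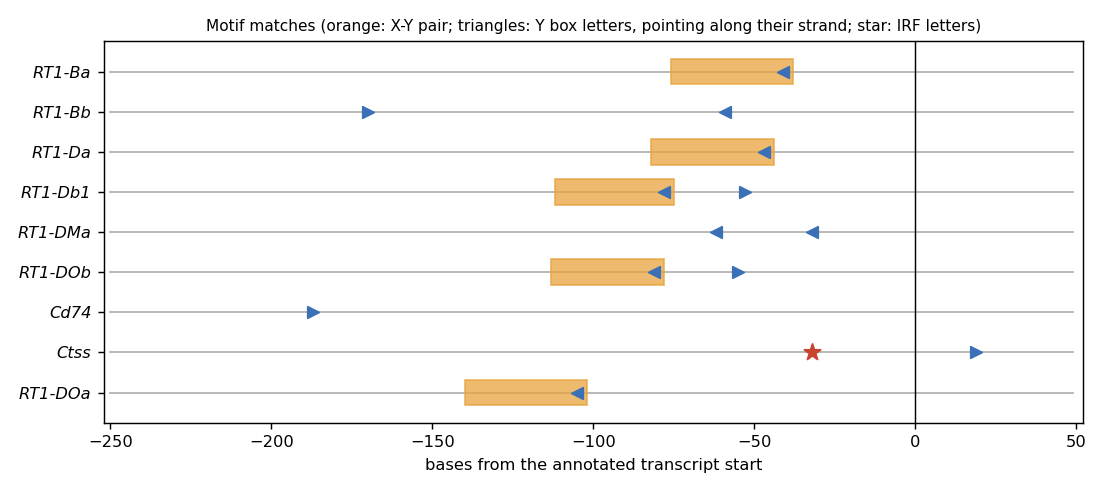
Position of motif matches in the promoter windows of 8 of the 10 genes and of RT1-DOa, in bases from the annotated transcript start (0). Orange bars are the spaced pair of GCAAC and ATTGG, blue triangles are CCAAT pointing along the strand that carries it, and the red star is GAAANNGAA. The pair lies between 140 and 39 bases before the start in the 5 windows that hold it.

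The α and β chains of the classical class II molecules were higher on both MSCT arrays than on both control arrays. RT1-Db1 (NM_001008884), the β chain of the DR-like molecule, had intensities of 661 and 899 in control replicates 1 and 2, and of 2250 and 3762 in MSCT replicates 1 and 2. This is a log2 difference of 1.92 (standard error of the limma fit 0.34), or 3.78-fold. RT1-Db1 had the largest difference of the 10 genes, and its MSCT arrays lay 0.74 apart on the log2 scale.

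RT1-Ba (NM_001008831), the α chain of the DQ-like molecule, was at 552 and 508 in the control group and at 1386 and 1943 in the MSCT group. Its difference was 1.63 on the log2 scale (standard error 0.25), and the control arrays lay within 0.12 of each other. The β chain of the same molecule, RT1-Bb (NM_001004084), was at 473 and 328 in the control group and at 1029 on both MSCT arrays. The difference was 1.38 (standard error 0.25), with the control arrays 0.53 apart. The MSCT and control arrays of both genes were separated by more than 1 unit of log2, 1.33 for RT1-Ba and 1.12 for RT1-Bb.

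RT1-Da (NM_001008847), the α chain of the DR-like molecule, was at 3837 and 2452 in the control group and at 5613 and 6843 in the MSCT group. Its difference of 1.01 (standard error 0.30) was 2.02-fold, and the nearest arrays of the groups were 0.55 apart, less than the 0.65 between the control arrays. The log2 ratio of RT1-Da to RT1-Db1 on the same array was 2.54 and 1.45 in the control group and 1.32 and 0.86 in the MSCT group. Different probes give such a ratio no meaning as a level. Its change between the groups can be read only as far as the probes respond alike, which was not tested. It also restates differences on which the genes were selected, so nothing is read from whether the groups overlap in it. The same limits hold for each ratio of genes given below. The chains of the pair differed by unequal amounts, and the groups did not overlap in this measure. For RT1-Ba against RT1-Bb the values were 0.22 and 0.63 in the control group and 0.43 and 0.92 in the MSCT group, which overlapped. Class II chain genes are alike in sequence, RT1-Db1 has a close relative (RT1-Db2) that was not matched to a row here, and how far probes of such genes share signal, or read one allele better than another, was not tested.

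**Figure D2:**
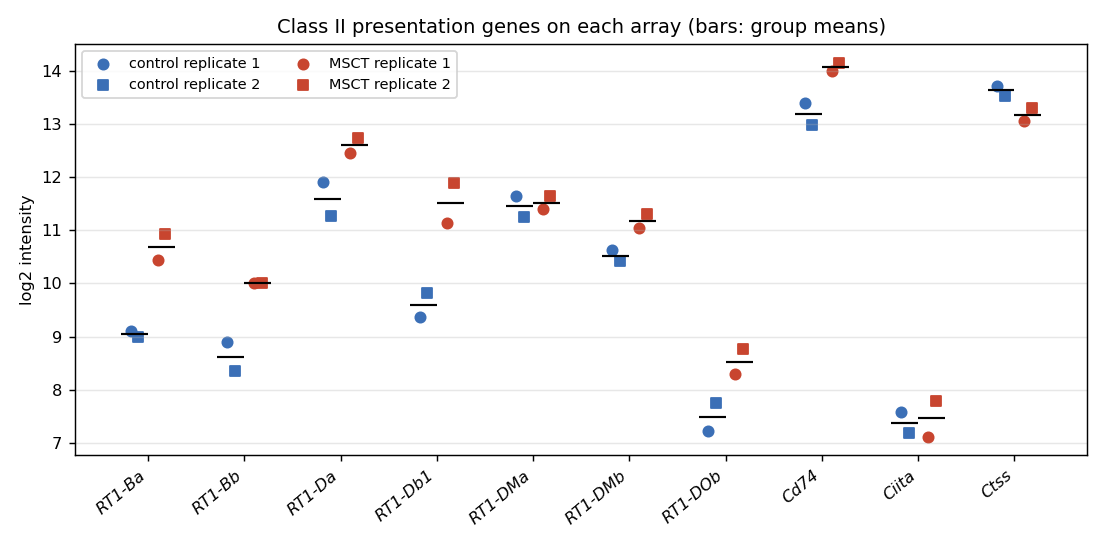
Log2 intensity of the 10 genes on each array, with blue for the control and red for the MSCT group, circles for replicate 1 and squares for replicate 2, and short bars for group means (n = 2). Levels of different genes come from different probes and cannot be compared with each other. The groups are apart for 8 genes, with Ctss the one that is lower in the MSCT group, and overlap for RT1-DMa and Ciita.

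The genes of the peptide exchange machinery did not share one pattern. RT1-DMa (NM_198741), the α chain of the exchange factor DM, was at 3214 and 2433 in the control group and at 2683 and 3195 in the MSCT group. Its groups overlapped, with a difference of 0.07 (standard error 0.24). RT1-DMb (NM_198740), the β chain of DM, was at 1589 and 1366 against 2106 and 2535. Its groups did not overlap, and the difference was 0.65 (standard error 0.21), or 1.57-fold. The log2 ratio of RT1-DMa to RT1-DMb on the same array was 1.02 and 0.83 in the control group and 0.35 and 0.33 in the MSCT group, so the chains of this pair also differed by unequal amounts.

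RT1-DOb (NM_001008846), the β chain of the DM inhibitor DO, was dim, at 150 and 215 in the control group and 312 and 435 in the MSCT group. The difference was 1.04 (standard error 0.30), or 2.05-fold. Its α chain partner RT1-DOa, which is not among the 10 genes, was at 552 and 299 against 401 and 248 and overlapped between the groups (difference -0.37, standard error 0.42, limma adjusted p = 0.747). Both promoters hold the spaced pair of GCAAC and ATTGG shown above.

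Cd74 (NM_013069), the invariant chain, was measured on a bright row, above 97.6% of measured rows. It was at 10824 and 8016 in the control group and at 16269 and 18183 in the MSCT group, a difference of 0.88 (standard error 0.24), or 1.85-fold. The difference of RT1-Ba exceeded that of Cd74 by 0.75, and the groups did not overlap when the genes were set against each other on the same array.

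Ciita (NM_053529), the transactivator of class II genes, was dim and overlapped between the groups. It was at 191 and 145 in the control group and at 139 and 222 in the MSCT group, with a difference of 0.08 (standard error 0.32). RT1-Ba minus Ciita on the same array was 1.53 and 1.81 in the control group and 3.31 and 3.13 in the MSCT group. The row of Ciita ranked above 13.1% of measured rows, and its MSCT arrays lay 0.67 apart on the log2 scale.

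Ctss (NM_017320), cathepsin S, was lower in the MSCT group, at 8518 and 10009 against 13540 and 11851. The difference was -0.46 (standard error 0.21), and the nearest arrays of the groups were 0.24 apart, close to the 0.23 between the MSCT arrays. For Cd74, whose protein it cuts, minus Ctss, the log2 values were -0.32 and -0.56 in the control group. They were 0.93 and 0.86 in the MSCT group, which restates the opposite signs of the differences of these genes.

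In total, 9 of the 10 genes were higher and 1 was lower, with a median difference of 0.95 against -0.02 over all 18350 rows. The screen used in the study asks for a fold change over 2 and an unadjusted p under 0.05, taken from limma here, and was passed by 5 genes that were higher (RT1-Ba, RT1-Bb, RT1-Da, RT1-Db1 and RT1-DOb) and by 0 that were lower. The study's chip methods give these limits and name no test, and analysis of variance is named for the study in general. The test called the methods' t-test here is a plain one with equal variances. It is the form that one-way analysis of variance takes for 2 groups. With its p, RT1-Da and RT1-DOb did not pass the screen and 3 remained. Over all rows 2.12% passed it as higher and 2.51% as lower. The groups did not overlap in 7 of the genes as higher and in 1 as lower, and over all rows in 21.3% as higher and 24.5% as lower. Because the genes were selected on this contrast, nothing is read from these counts. Just inside the fold limit were RT1-Da and RT1-DOb (1.01 and 1.04), and just outside it was Cd74 (0.88). RT1-DMb (0.65, or 1.57-fold) lay farther below it. Over all rows, 0 passed an adjusted p of 0.05 with limma and 0 with the methods' t-test, while 2196 had an unadjusted limma p under 0.05.

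Within the groups, the arrays were ordered alike for most of the genes. MSCT replicate 2 was above MSCT replicate 1 for 9 of the 10, RT1-Bb being the exception, and control replicate 1 was above control replicate 2 for 8. The mean log2 level of the 10 genes was 10.35 and 10.15 for the control rats, and 10.89 and 11.25 for the MSCT rats. When 1 array was left out at a time, the differences of RT1-Ba (1.39 to 1.88), RT1-Bb (1.12 to 1.65) and RT1-Db1 (1.55 to 2.29) stayed past the screen. RT1-Da (0.69 to 1.34) did not pass without control replicate 2 or without MSCT replicate 2. RT1-DOb (0.78 to 1.30) did not pass without control replicate 1 or without MSCT replicate 2. The count of 5 thus became 3 without MSCT replicate 2. The sign changed for RT1-DMa (-0.13 to 0.27) and Ciita (-0.25 to 0.41), whereas Ctss stayed lower (-0.57 to -0.34).

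**Figure D3:**
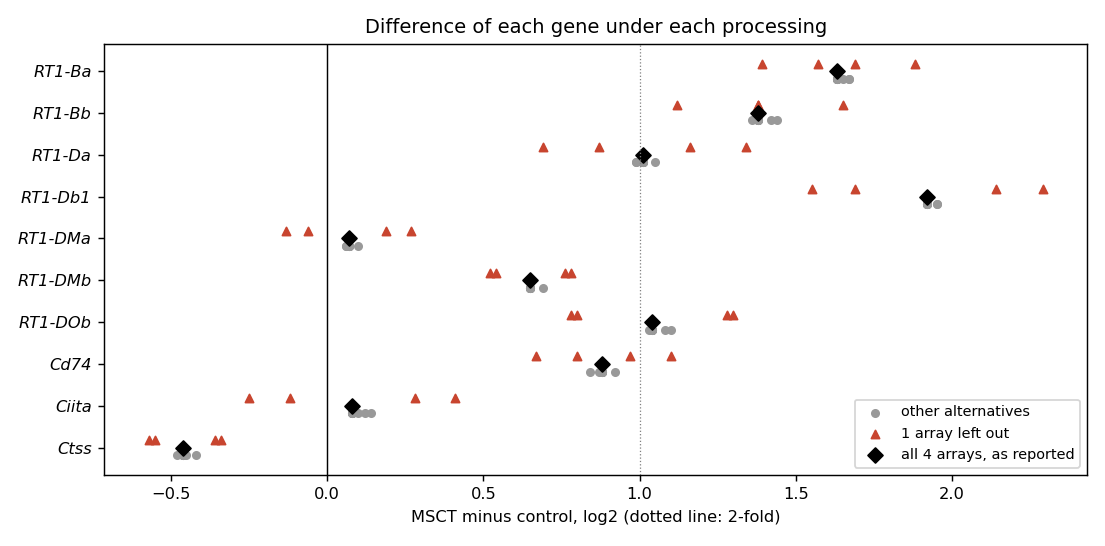
Difference of each gene (MSCT minus control, log2) with all 4 arrays (black diamonds), with 1 array left out (red triangles) and under the other alternatives (gray). Ctss lies below 0 throughout, RT1-DMa and Ciita lie on both sides of 0, and RT1-Ba, RT1-Bb and RT1-Db1 lie above the dotted line of 2-fold throughout.

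Other genes of peptide processing and class II turnover were mostly higher in the MSCT group by amounts under the fold limit. Of 18 genes in the list, 13 were measured. The screen was passed by 2 as higher and 0 as lower, against 2.12% and 2.51% of all rows. The groups did not overlap in 9, all as higher, against 21.3% of all rows as higher and 24.5% as lower. The median difference of the list was 0.41. Ctsc, a dipeptidyl peptidase that activates serine proteases of immune cells, had log2 intensities of 11.24 and 11.23 in control rats and of 12.73 and 12.87 in MSCT rats, a difference of 1.56 (standard error 0.19) that had a limma adjusted p of 0.257. Ctse, an aspartic protease of the endosome, differed by 1.35 (standard error 0.42, adjusted p = 0.364 by limma), with control arrays at 9.55 and 10.59. Ctse did not pass the screen without control replicate 1, without MSCT replicate 2 or by the methods' t-test, which left 1 gene of the 13. Below the fold limit were the cathepsins Ctsz (0.70), Ctsl (0.46) and Ctsf (0.41), the legumain gene Lgmn (0.48) and the cysteine protease inhibitors Cstb (0.47) and Cst3 (0.40), each with groups that did not overlap. The nearest among these proteases to the direction of Ctss was Ctsd at -0.38, whose groups overlapped. RT1-Ha was blank on all arrays, and RT1-Db2, Cst7, Marchf1 and Marchf8 were not matched to a row.

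Of the genes that control class II transcription, 16 of 25 were measured, and their median difference was 0.09. The screen was passed by 1 as higher and 0 as lower, against 2.12% and 2.51% of all rows. That gene was Tgfb1, a cytokine that restrains Ciita, at 9.13 and 9.29 in the control group and 10.16 and 10.63 in the MSCT group (difference 1.19, standard error 0.25, limma adjusted p = 0.289), and without MSCT replicate 2 no gene of the list passed. Nfya, a subunit of the Y box factor NF-Y, differed by 0.78 (limma adjusted p = 0.332), while its partners Nfyb and Nfyc differed by 0.08 and 0.10. Of the RFX complex, Rfxap differed by 0.29 and Rfxank by 0.12, and Rfx5 was not matched to a row. Creb1 differed by 0.51, Crebbp by -0.30 and Socs1, an inhibitor of interferon signaling, by 0.32. The interferon γ receptor chain Ifngr1 (0.09), its kinase Jak2 (-0.12) and the transcription factor gene Irf1 (-0.08), which takes part in the induction of Ciita, had groups that overlapped, as did Irf8 (-0.24). Ifng itself was blank on all 4 arrays, as were Il10 and Spi1.

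Genes induced by interferon γ outside the class II pathway gave 9 measured of 16 and a median difference of 0.32. None passed the screen by limma, and 3 had an unadjusted limma p under 0.05: the chemokine gene Cxcl11 (1.00), the adhesion molecule gene Icam1 (0.90) and Wars1 (0.58), with limma adjusted p of 0.354, 0.291 and 0.380. Cxcl11, at the fold limit, passed it after quantile normalization, with equal array medians, with linear means or without MSCT replicate 2, and by the methods' t-test none of the 9 did. The list shares genes, Irf1 and Socs1 among them, with the preceding one. The 22 measured genes of class I presentation, which shows peptides of the cell's own proteins, had a median difference of -0.01. This median lies between genes that differed in both directions: the groups did not overlap in 6 as higher and in 8 as lower. Over all rows they did not overlap in 21.3% as higher and 24.5% as lower. Of the 22 genes, 1 passed the screen: RT1-N2, a nonclassical class I gene, which was lower (-1.38, standard error 0.22, limma adjusted p = 0.26). The others lay between -0.48 (RT1-CE1) and 0.78 (RT1-CE5).

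Costimulation and the T cell side of the contact were poorly covered, with 5 of 15 genes measured. Icos (0.60) and the class II coreceptor gene Cd4 (0.37) were higher in the mean, and Cd86 (-0.26), Cd40 (-0.44) and Tnfrsf4 (-0.51) lower. The screen passed none of the 5, with limma as with the methods' t-test, and none had an unadjusted p under 0.05 by limma (smallest adjusted p 0.452). The genes Cd80, Cd28, Ctla4, Cd40lg, Lag3 and Tnfsf4 were blank on all 4 arrays.

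**Figure D4:**
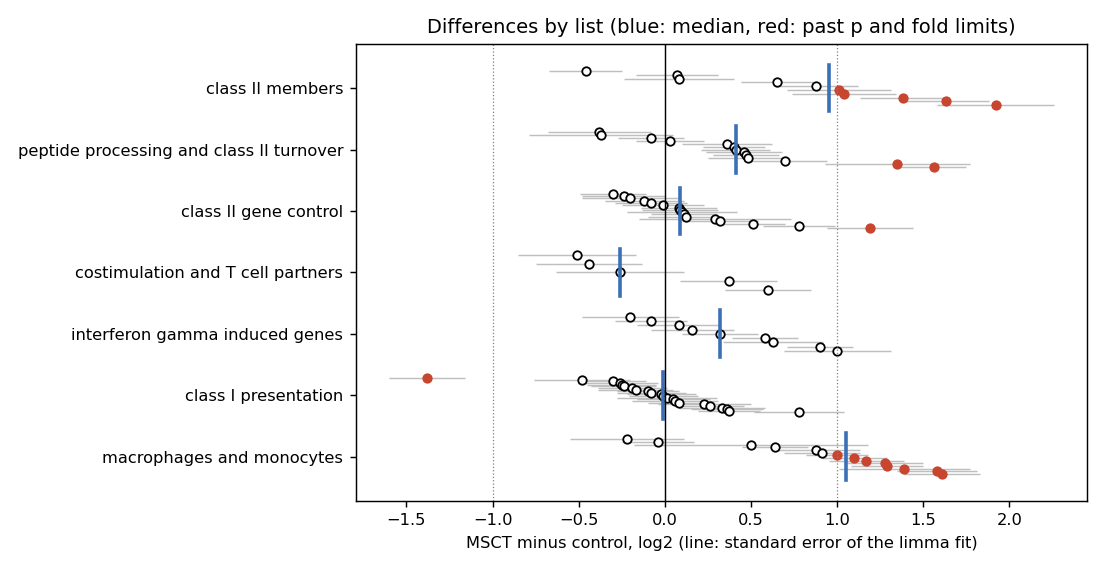
Difference of each measured gene (MSCT minus control, log2) with the standard error of the limma fit as a gray line, by list. Blue bars are list medians, red points passed the screen, and dotted lines mark 2-fold. The medians of the class II genes (0.95) and the macrophage list (1.05) lie to the right of those of the class I (-0.01) and gene control (0.09) lists. Single genes of the class I and gene control lists lie on both sides of 0.

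Markers of cells that carry class II were set beside these values. In bulk tissue, more cells of a type and more RNA per cell cannot be told apart. Of 21 genes of the macrophage and monocyte list, 14 were measured, 12 of them higher in the MSCT group, 8 past the screen as higher and 0 as lower, and the median difference was 1.05. The largest were those of the complement gene C1qb (1.61, limma adjusted p = 0.257), the adaptor Tyrobp (1.58, 0.260), Aif1 (1.39, 0.338) and the lysosomal marker Cd68 (1.29, 0.260), and the receptor gene Csf1r differed by 1.00 (0.270), each with groups that did not overlap. Without control replicate 2 or without MSCT replicate 2, Csf1r and Aif1 did not pass, and Aif1 did not pass without control replicate 1 or by the methods' t-test either. Cd14 (-0.04), Cx3cr1 (-0.22) and Mertk (0.50) overlapped between the groups. Over all rows, 2.12% passed the screen as higher and 2.51% as lower. The list had a mean log2 level of 8.98 and 9.06 for the control rats and of 9.87 and 10.05 for the MSCT rats, which differ by 0.94, against 0.82 for the 10 class II genes.

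In the list of genes of all leukocytes, 10 of 14 were measured, with a median difference of 1.00. The screen was passed by 5, all as higher, against 2.12% of all rows. Laptm5 (1.33), Itgal (1.38), Cd53 (1.07) and Arhgdib (1.02) were the largest of those that passed, and Cd52 was lower (-0.76). Of the 5, only Laptm5 passed with each array left out in turn, and without MSCT replicate 2 the count was 2. It was also 2 by the methods' t-test, and 0 without the dimmest 50% of rows, which hold all 5. In the dendritic cell list, 5 of 16 were measured, and Clec10a, a lectin that macrophages also carry, was past the screen (1.62, limma adjusted p = 0.257), whereas Batf3, Ccr7, Itgae and Cd1d1 lay between -0.17 and 0.60. For B cells, 4 of 16 genes were measured, and Blk (1.32, adjusted p = 0.365 by limma) passed the screen, but not by the methods' t-test, without control replicate 2 or without MSCT replicate 1. The row of Blk was dim, above 6.45% of measured rows, and its companions Blnk, Spib and Fcer2 overlapped between the groups. For T cells, 5 of 15 were measured, and Zap70 (1.89, adjusted p = 0.325 by limma) passed, but not by the methods' t-test, without control replicate 1 or without control replicate 2. The row of Zap70 was also dim, above 17.1% of measured rows. Cd3g (0.13), Lat (0.01), Cd8a (0.01) and Cd27 (-0.36) overlapped between the groups, and the median difference of the T cell list was 0.01. Cd79a, Ms4a1, Itgax, Flt3, Cd3e and Ptprc were not matched to a row.

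The 10 genes were also set against the macrophage list on the same array. That list lay at 8.98 and 9.06 in the control group and at 9.87 and 10.05 in the MSCT group. Subtracting it therefore takes a near constant amount from each difference. The values below largely restate the differences on which the genes were selected, and nothing is read from which groups were apart. The difference between the groups was then 0.98 for RT1-Db1, 0.70 for RT1-Ba and 0.45 for RT1-Bb, and the groups did not overlap. It was 0.08 for RT1-Da, 0.10 for RT1-DOb and -0.05 for Cd74, with groups that overlapped. It was -0.29 for RT1-DMb, -0.86 for Ciita, -0.87 for RT1-DMa and -1.39 for Ctss, with groups that were apart. Against the leukocyte list, RT1-DOb (0.39) joined the first 3 as higher, RT1-DMb (0.00) overlapped, and the other genes kept their place. The part of these cells in the differences was not tested.

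Defining genes of the colon wall were measured in both groups. Of 16 epithelial genes 13 were measured, with a mean log2 level of 13.88 and 13.90 for the control rats and of 14.05 and 13.97 for the MSCT rats, and Epcam differed by 0.07. The 6 measured genes of smooth muscle differed by -0.05 in mean level, and Myh11 was not matched to a row. No gene of these 2 lists passed the screen by limma, and 1 of them, Elf3 (-0.72), had an unadjusted limma p under 0.05. The fibroblast list lay at 12.42 and 11.90 in the control group and at 12.44 and 12.67 in the MSCT group.

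**Figure D5:**
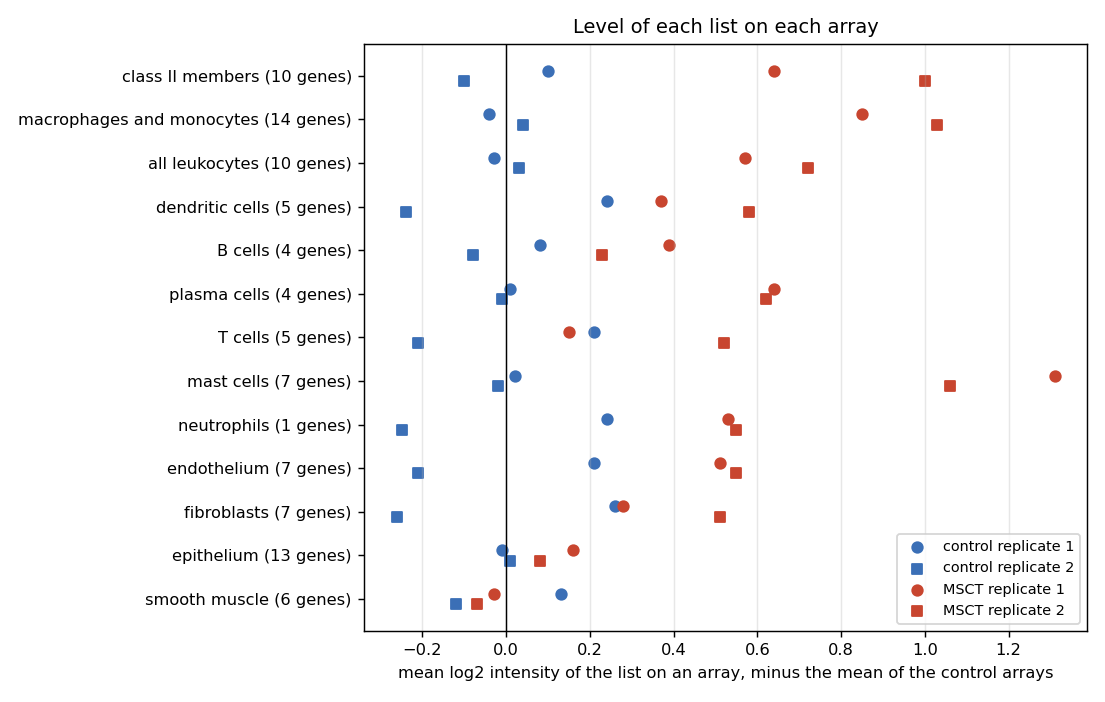
Mean log2 intensity of each list on each array, minus the mean of the control arrays (blue control, red MSCT, circles replicate 1, squares replicate 2). The class II genes and the macrophage, leukocyte, plasma cell, mast cell, neutrophil and endothelium lists are more than 0.5 above the control mean on both MSCT arrays, and the epithelial and smooth muscle lists lie within 0.2 of it on all arrays.

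The rows most like the class II genes were sought by the root mean square distance over the 4 arrays between a row's centered log2 values and the mean centered profile of the 10 genes, which was -0.31 and -0.51 in the control group and 0.23 and 0.59 in the MSCT group. Among the 10 genes, RT1-DMb (0.092) and Cd74 (0.113) lay nearest to this profile, and Ctss (0.640) and RT1-Db1 (0.608) farthest. Of all 7062 named rows, the nearest outside the 10 genes were those of Plek, a platelet and leukocyte protein, at 0.026, Bdkrb2, a bradykinin receptor, at 0.038, S100a4 at 0.047, the receptor kinase gene Axl at 0.053 and the nucleotide receptor gene P2ry2 at 0.056, where the median distance was 0.475. Their differences were between 0.73 (Axl) and 0.88 (Bdkrb2), and none of the 5 passed the screen by limma. With 4 arrays, such a ranking describes these rats only.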

How the data were processed

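The authors hybridized Cy3-labeled cDNA to NimbleGen arrays, scanned them with a GenePix scanner and extracted them with NimbleScan. The deposited table holds 1 linear intensity per RefSeq transcript and array. The submitters' processing notes name RMA, without a version. The array medians lay between 848 and 893, so the deposited values are not fully quantile-equal. Of 26420 rows, 8070 are blank on all 4 arrays by a rule not given in the sources used here, and 0 value columns had no sample.

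Intensities were used as log2 values, with no pseudocount, scaling or filter, and compared with limma 3.58.1 (R 4.3.3, lmFit and eBayes) over 18350 rows with Benjamini-Hochberg adjustment. With 2 arrays in each group, the smallest two-sided p of an exact permutation test is 0.333. Each limma p therefore rests on variance shared between rows, and precision is limited by how few arrays there are. Nothing states how the rats of a group are related, and p-values measure the spread between these arrays. No pair of arrays held the same values in most rows. The test was checked on simulated data. Alternatives were the methods' t-test, 2 other scalings, leaving out dim rows or 1 array, a variance that depends on intensity, the replicate block, a fold limit of 1.5, linear means and other rules for genes with several rows.

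The genes, lists and motifs were chosen with earlier results of these data known. Rows were named with the RefSeq table of GRCr8, for names only (7062 measured rows), and the highest mean was taken where a gene had several rows. The text names the 10 genes, the genes past the screen and up to 6 others with the largest differences in the 3 pathway lists, up to 4 past the screen and fixed markers in the others, and the 5 nearest rows. RT1-DOa, Ctsd, Nfyb, Nfyc, Rfxank, Ifngr1, Jak2, Irf1, Cd14, Cx3cr1, Mertk, Cd52, Elf3, the other dendritic, B and T cell genes, the interferon γ genes, RT1-CE1, RT1-CE5, the genes given as overlapping in the closing lists, Xbp1, S100a9, Cat, Hspa5, Ltv1 and the unmeasured genes were added after their values were seen. Figures were drawn with matplotlib 3.10.9 in Python 3.11.15. Protein identity between the genes was planned and not computed, since no protein table was used here.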

Additional observations from a re-analysis of the deposited data

How the results depend on the processing

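The median difference of the class II genes was 0.95 and lay between 0.68 (without control replicate 2) and 1.06 with 1 array left out. RT1-Bb, RT1-DOb and Ciita had no value without the dimmest 50% of rows, and RT1-DOb and Ciita none without the dimmest 25%. The number of class II genes past the screen was 5, and it was 3 by the methods' t-test (RT1-Da and RT1-DOb being lost) and 3 without the dimmest 50% of rows, and between 3 and 5 with 1 array left out. After quantile normalization and with fold changes of linear means, 4 passed, RT1-Da being lost. The median of all rows moved to -0.005 with quantile normalization and 0.019 with equal array medians.

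In the processing list, 1 of 13 genes (Ctsc) passed by the methods' t-test, and 1 to 2 with 1 array left out. In the gene control list, 2 passed with a fold limit of 1.5, and 0 to 1 with 1 array left out. In the macrophage list, 4 passed without the dimmest 50% of rows, and the median lay between 0.93 and 1.13 with 1 array left out. Over all rows, 389 were past the screen as higher and 461 as lower. These counts were 191 and 197 by the methods' t-test, 143 and 108 without the dimmest 50% of rows, and 802 and 1217 with a fold limit of 1.5. Without the dimmest 25% of rows, 298 passed as lower. With 1 array left out they lay between 459 and 901 and between 475 and 969. The causes were not tested, beyond fewer rows or arrays entering a fit. An adjusted p of 0.05 was passed by 4 rows without the dimmest 25%, by 247 without the dimmest 50% and by 387 with a variance that depends on intensity. With the replicate number as a block, 5 class II genes passed (median 0.95) and 447 rows as higher and 524 as lower. The labels give no shared origin to arrays of the same number, and the correlation of their deviations over rows was 0.234. Dim rows such as Ciita limit what can be detected.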

Other observations

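Lists of other cell types gave values that belong to no class II comparison. For plasma cells, 4 of 9 genes were measured. Mzb1, a chaperone of immunoglobulin assembly, was past the screen (1.26, limma adjusted p = 0.260). Its row was dim, above 11.6% of measured rows, and without the dimmest 25% of rows 0 genes of the list passed. Xbp1 differed by 1.00 (limma adjusted p = 0.289) and Pigr by 0.05. For mast cells, 7 of 12 were measured. Past the screen were Mcpt9 (1.61, adjusted p = 0.260 by limma) and the row that the reference table names Mcpt1 (4.41, 0.257). The 21.3-fold difference of this row is, to rounding, the one the study lists for Mcpt2 and not that for Mcpt1. Its name is therefore not settled. Kit (0.18) and Tpsab1 (-0.09) overlapped between the groups. For endothelium, 7 of 11 were measured, and Plvap, a protein of fenestrated vessels, was past the screen (1.58, adjusted p = 0.257 by limma), while Pecam1 (0.29) and Kdr (0.05) overlapped. For neutrophils, S100a9 was the 1 measured gene of 12, with a difference of 0.54 (adjusted p = 0.477 by limma).

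Genes outside the 10 class II genes of the report, RT1-DOa among them, whose promoter window holds the spaced pair of GCAAC and ATTGG were looked at after the pair was found. Of 25 such measured genes, 17 were higher and 8 lower in the MSCT group, with a median difference of 0.09. None passed the screen by limma, and Cat, Hspa5 and Ltv1 had an unadjusted limma p under 0.05 (differences 0.55, 0.82 and 0.56).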
